A study of Drosophila melanogaster with 2 samples.

Results

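The Hippo and Fat pathway genes hpo, wts, sav, mats, yki, sd, ft, ds, fj and ex were looked up by symbol in the gene annotation, and all 10 were found among 13945 protein-coding genes. They were chosen by name, and sites were assigned to a member when the peak summit lay in the gene body or within 5 kb of it. Of the 5354 reproducible sites of the series, 18 met this rule, at 9 of the 10 genes.

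The data map where CG15696, a protein with a homeodomain, sat on the Drosophila melanogaster genome by ChIP-seq, in which crosslinked chromatin is precipitated and the DNA sequenced. The chromatin came from whole embryos of mixed sex aged 2 to 8 h, from a transgenic line in which CG15696 carries green fluorescent protein (GFP) at its C-terminus, and was precipitated with an antibody to GFP after sonication to a size range of 200 to 800 bp. There were 2 samples in 1 group, biological replicates 3 and 1 of the same line, so there is no comparison between conditions, and peaks were called against 1 control alignment. Whole embryos hold all cell types, so a site bound in few cells and a site bound weakly in many cannot be told apart, and peak lists carry no RNA with which to check the stage.

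In the Hippo pathway the kinase Hippo (hpo), with its scaffold Salvador (sav), phosphorylates the kinase Warts (wts), whose coactivator is Mats (mats). Warts in turn phosphorylates Yorkie (yki), which keeps this coactivator out of the nucleus. Nuclear Yorkie drives growth and survival genes through the DNA-binding protein Scalloped (sd). Upstream, the FERM-domain protein Expanded (ex) and the atypical cadherins Fat (ft) and Dachsous (ds), which bind each other between neighbouring cells, feed into Warts and Yorkie. Four-jointed (fj) is a Golgi kinase that modifies the extracellular cadherin domains of Fat and Dachsous. The pathway is best known from growth control in larval imaginal discs, and the Fat branch also from planar cell polarity.

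A site is called reproducible here when it is in the list that the authors thresholded by the irreproducible discovery rate (IDR), which measures how well peaks keep their rank between replicates. Signal is the authors' own value per peak, on a scale that is not stated. It was used to rank peaks from 1, the strongest, within each list. The IDR sites are the strongest pooled peaks, so rank and signal in the pooled list are the same as in the IDR list for all 18 sites. Signal in the IDR list had a median of 259, a lowest value of 134 and a highest of 7767. The pooled list and both replicate lists held 30000 peaks each. Read depth is unknown, so no error from counting can be given and the 2 replicates are the only measure of error.

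The strongest sites at the pathway genes lay at the upstream genes ft and ex and beside yki, while the best sites at sd, hpo, sav and mats ranked between 3982 and 5056 of 5354, and that at wts ranked 2591. By best site in reach, the order was ft (signal 1193), ex (812), yki (575), ds (343), wts (266), sd (177), hpo (148), and sav and mats (142 each). The sites counted here for wts and sav lay at the promoters of the neighbouring genes cindr and p53, and that for yki was nearer to Gpat4. The strongest site inside wts had a signal of 170. There was no reproducible site at fj. Among all protein-coding genes, 50.8% had a reproducible site by the same rule, and 5 of the 10 members (hpo, wts, sd, ft and ex) had 2 or more sites, against 23.5%. Of these 5, all but hpo are 16 kb or longer, and no share with 2 or more sites is given by length. The share with any site depends on gene length, and it was 45.3% for genes under 4 kb, 61.5% for genes of 4 to 16 kb and 68.3% for genes of 16 kb or more. The short members (hpo, sav, mats, yki and fj) held 5 sites in all, at 4 of 5 genes, and the long ones (wts, sd, ft, ds and ex) held 13, at 5 of 5 genes. Over all genes, the mean number of sites was 0.708 for genes under 4 kb and 2.04 for genes of 16 kb or more.

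**Figure D1:**
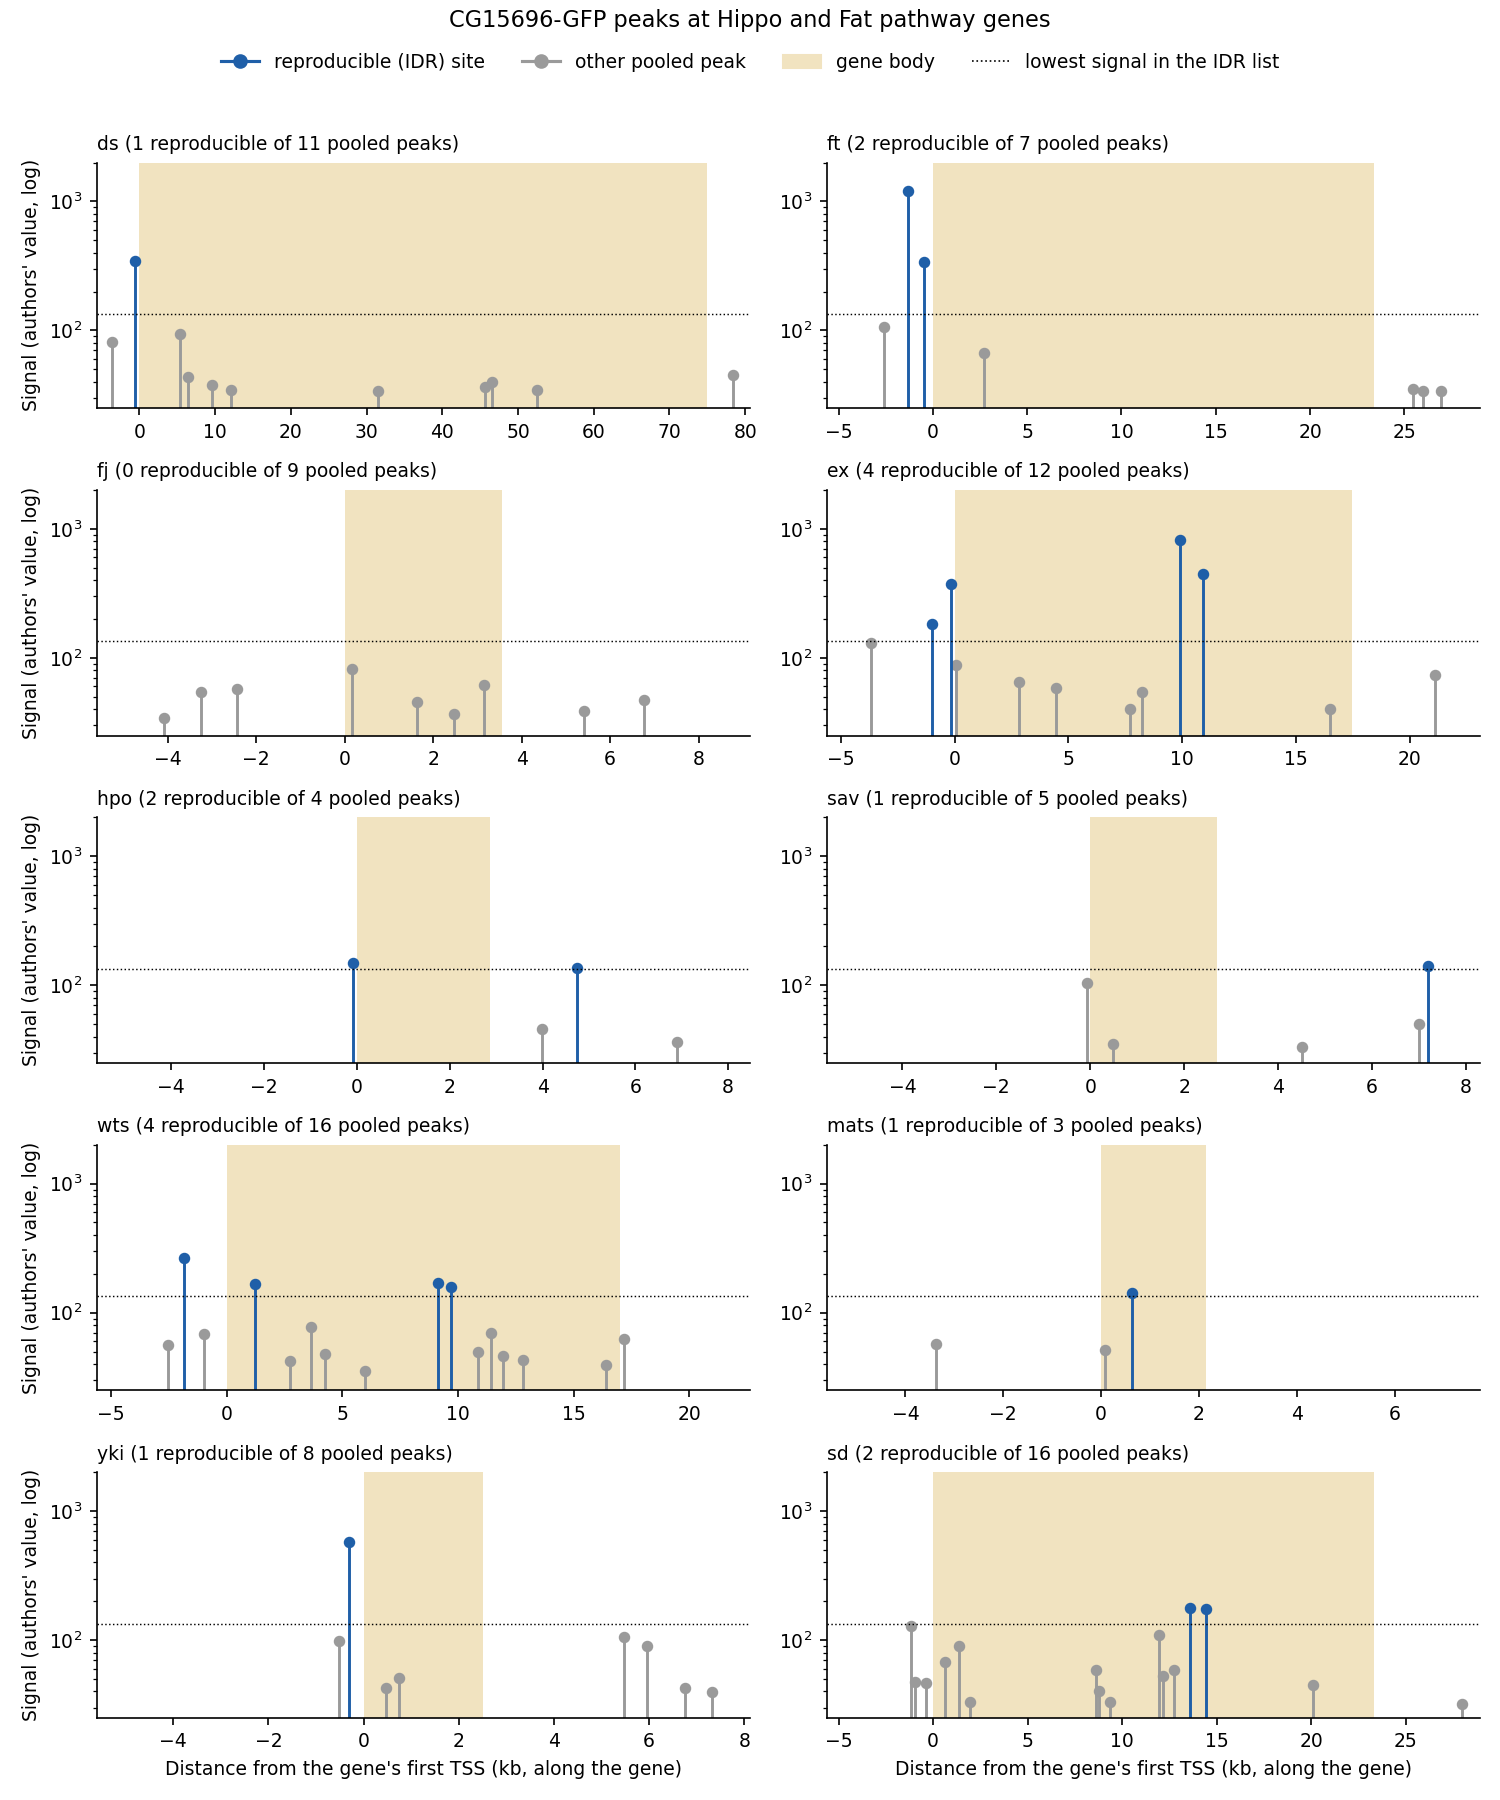
Signal of each pooled peak (authors' value, log axis) against its distance in kb from the first transcription start site of each of the 10 genes, along the direction of the gene. Blue stems are reproducible sites, grey stems are other pooled peaks, shading is the gene body and the dotted line is the lowest signal in the IDR list (134). The ft and ds sites stand just before the gene, ex has sites both before and inside it, and fj has grey stems alone.

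**Figure D2:**
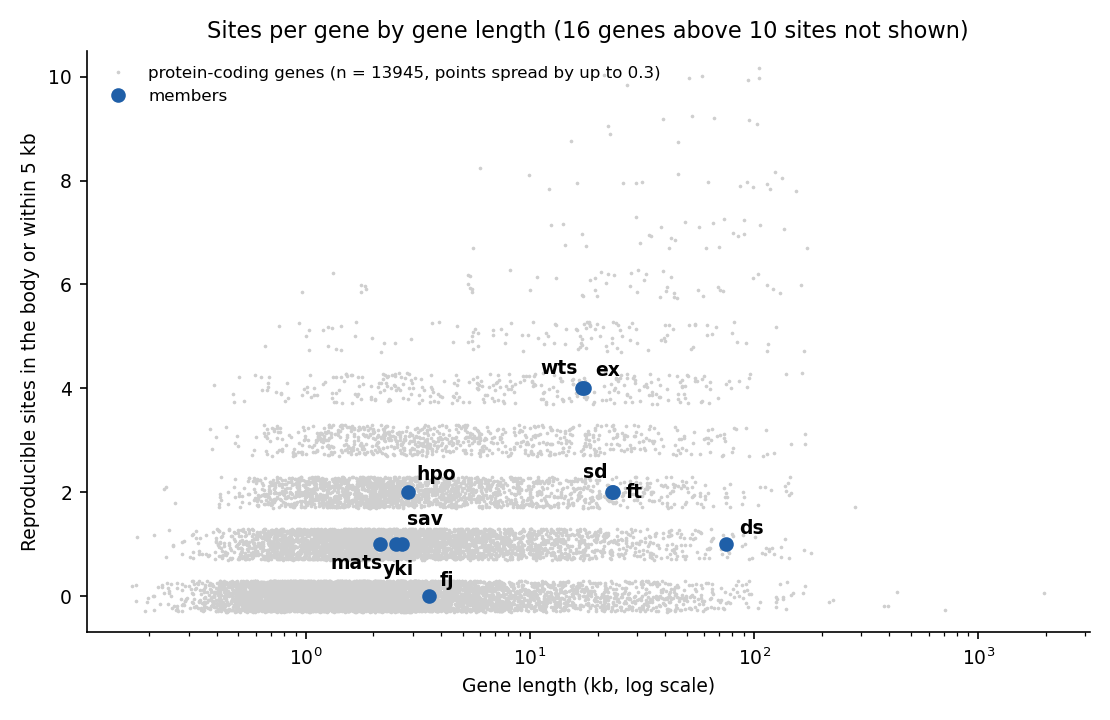
Number of reproducible sites in the body or within 5 kb against gene length in kb (log axis). Grey points are the 13945 protein-coding genes, spread vertically to show density, and blue points are the 10 members. The 16 genes with more than 10 sites are not drawn. The members wts and ex had 4 sites each, and ds, the longest member, had 1.

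Fat had the highest-ranked site of the set. The gene ft (FBgn0001075) lies on 2L from 4198404 to 4221796 on the minus strand and encodes a giant cadherin that acts as receptor for Dachsous. Its stronger site spanned 4222937 to 4223302 (dm6), in intergenic sequence with the summit 1312 bp upstream of the only ft start site. It ranked 293 of 5354. In replicate 3 it had a signal of 797 and rank 281, and in replicate 1 a signal of 399 and rank 349, so both libraries placed it in the same part of the list. The other site, from 4222080 to 4222483, had its summit 486 bp upstream of the start site, which makes it a promoter site by the limit of 500 bp used here. It ranked 1980 (signal 337), with a signal of 156 in replicate 3 (rank 2712) and 187 in replicate 1 (rank 1207). The summits were 826 bp apart. No reproducible site lay in the ft body of 23393 bp, where 0.936 sites would fall at the mean density of the genome. A further pooled peak, 2567 bp upstream of the start site, stayed outside the IDR list (rank 6786, signal 107).

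Dachsous, the ligand of Fat, had 1 reproducible site in spite of its length. The gene ds (FBgn0284247) spans 74971 bp on 2L from 640013 to 714983 on the minus strand and is longer than 98.9% of protein-coding genes. The site spanned 715480 to 715661, with its summit 580 bp upstream of the start site, and ranked 1945 (signal 343). Its signal was 190 in replicate 3 (rank 2201) and 137 in replicate 1 (rank 1832). The mean density of sites along the genome would put 3 in the ds body and there were 0, but 50.6% of genes of 16 kb or more also had none in the body. The strongest pooled peak inside ds lay 5412 bp into the gene and ranked 7805 (signal 93.1).

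The sequences at the 3 upstream sites of the cadherin genes are shown because these sites carry the strongest signal near Fat and the only one near Dachsous. Each is 101 bases centred on the summit, on the plus strand of dm6 as RefSeq gives it. Both genes are on the minus strand. Capitals mark TAATTA, a core bound by many homeodomain proteins, or CATTCT, a word found in several member windows. Matches on either strand are marked.

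ft, 1312 bp upstream (chr2L:4223058-4223158): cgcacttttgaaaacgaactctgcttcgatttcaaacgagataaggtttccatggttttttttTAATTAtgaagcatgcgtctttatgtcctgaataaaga
ft, 486 bp upstream (chr2L:4222232-4222332): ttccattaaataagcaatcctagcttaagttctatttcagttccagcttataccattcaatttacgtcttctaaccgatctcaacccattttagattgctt
ds, 580 bp upstream (chr2L:715513-715613): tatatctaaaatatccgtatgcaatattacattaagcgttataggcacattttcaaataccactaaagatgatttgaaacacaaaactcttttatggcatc

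The stronger ft window held 1 TAATTA, which starts at base 64 of 101, and the other 2 windows held none. GC content was 34.7% and 33.7% in the ft windows and 28.7% in the ds window, against a median of 31.7% over all 5354 sites.

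Four-jointed was the member with no reproducible site within 5 kb. The gene fj (FBgn0000658) sits on the plus strand of 2R, from 18232761 to 18236311. It had 9 pooled peaks in reach, of which the strongest was at its promoter, 154 bp past the start site, with rank 8938 (signal 82.0). That peak had a partner of rank 7565 in replicate 3 and 18019 in replicate 1. Replicate 3 held 3 peaks at fj and replicate 1 held 11, and none of them reached the strongest 5354 of its list. Farther out, 3 reproducible sites lay between 5 and 10 kb from the gene. Past its end were a site on 2R from 18242013 to 18242299 (rank 1147, signal 525) and another from 18246189 to 18246410 (rank 1653, signal 392), and for both fj has the nearest protein-coding start site, at 9361 and 13531 bp. The call for fj therefore rests on the limit of 5 kb. With 10 kb all 10 members had a site, against 64.7% of all genes, and with 2 kb 8 of 10, against 37.2%.

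Expanded had 4 reproducible sites, as many as wts and more than the other members, in a pair upstream and a pair inside the gene. By comparison, 3.92% of all protein-coding genes and 20.6% of those of 16 kb or more had 4 or more. The gene ex (FBgn0004583) lies on 2L from 431227 to 448701 on the plus strand. Expanded acts upstream of Hippo and Warts, and its gene is itself a known target of Yorkie in imaginal discs. The strongest site, from 440908 to 441299, lay in intron 3 of 5, with the summit 9888 bp past the start site. It ranked 592 (signal 812), with a signal of 499 in replicate 3 (rank 653) and 322 in replicate 1 (rank 502). The second, from 442012 to 442229 in the same intron, ranked 1421 (signal 443), with a signal of 255 in replicate 3 and 186 in replicate 1. Its summit was 1008 bp from the first, and the nearest start site was that of the neighbouring gene crq, 9179 bp away.

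Upstream of ex, the promoter site from 430991 to 431122 had its summit 165 bp before the start site and ranked 1756 (signal 372). Replicate 3 gave it a signal of 187 (rank 2256) and replicate 1 a signal of 174 (rank 1353). The weakest of the 4, from 430024 to 430427, had its summit 1001 bp upstream and ranked 3885 (signal 182), with ranks of 3516 in replicate 3 and 5139 in replicate 1. All 4 ex sites were thus among the strongest 5354 peaks of both replicates. A further pooled peak 3683 bp upstream ended just below the IDR list, with rank 5521 and signal 131. It was 1 of the strongest 5354 in replicate 3 (rank 4428) and not in replicate 1 (rank 12103).

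The windows of the 3 strongest ex sites are printed because ex has the most sites in the strongest 2677 of the list, both inside the gene and at its promoter.

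ex, intron 3, stronger (chr2L:441065-441165): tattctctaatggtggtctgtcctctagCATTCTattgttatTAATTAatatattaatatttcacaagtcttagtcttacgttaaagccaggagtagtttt
ex, intron 3, weaker (chr2L:442073-442173): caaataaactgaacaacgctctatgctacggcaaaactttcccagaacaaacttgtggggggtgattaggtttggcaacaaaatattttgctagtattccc
ex, promoter (chr2L:431012-431112): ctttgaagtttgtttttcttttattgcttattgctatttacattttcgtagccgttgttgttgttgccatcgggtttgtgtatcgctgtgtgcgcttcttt

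GC content was 29.7% in the stronger intronic window, 40.6% in the weaker one and 37.6% at the promoter. The stronger intronic window has an unbroken run of 24 A or T bases that includes TAATTA.

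Of the 8 sites at the core kinase genes hpo and wts and their partners sav and mats, 7 had signals of 170 or lower, under the list's median of 259, and the remaining one, near wts, had 266. The gene hpo (FBgn0261456) lies on 2R from 19493996 to 19496856 on the minus strand. A promoter site, from 19496731 to 19497134, had its summit 77 bp upstream of the hpo start site and ranked 4835 (signal 148). Its signal was 69.1 in replicate 3 (rank 5978) and 79.3 in replicate 1 (rank 3768), so the strongest 5354 peaks of replicate 3 do not hold it. The other site in reach, from 19491915 to 19492318, ranked 5322 (signal 135) and lay 30 bp from the start site of the neighbouring gene Rep. In replicate 3 the Rep peak ranked 4471. Replicate 1 had no summit within 100 bp of it, and its closest peak there had a summit at 19491969 and rank 4752.

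Salvador, the scaffold of the Hippo kinase, had no reproducible site at its own promoter. The gene sav (FBgn0053193) lies on 3R from 23058609 to 23061304 on the minus strand. The site in reach, from 23053904 to 23054307, was 24 bp from the start site of p53, the fly homologue of the tumour suppressor, and 7198 bp from that of sav. It ranked 5039 (signal 142), with a signal of 26.3 in replicate 3 (rank 19129) and 120 in replicate 1 (rank 2209). The log2 ratio of replicate 3 to replicate 1 was -2.19, and 1 of the 5049 sites matched in both replicates had a lower one. A pooled peak 61 bp upstream of the sav start site was outside the IDR list (rank 6926, signal 105). That promoter peak, too, was weaker in replicate 3 (rank 21848) than in replicate 1 (rank 3748). In replicate 3 alone, no sav peak was among the strongest 5354, while in replicate 1 alone both were, so the call at sav rests on replicate 1.

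Warts, the kinase that phosphorylates Yorkie, had 4 sites of which 3 were inside the gene. The gene wts (FBgn0011739) lies on 3R from 30789625 to 30806619 on the minus strand. The strongest site in reach, from 30808247 to 30808650, ranked 2591 (signal 266) and was 1830 bp upstream of wts, but 168 bp from the start site of cindr, a gene for an adaptor protein of the actin cytoskeleton. Replicate 3 gave it a signal of 183 (rank 2301) and replicate 1 a signal of 82.4 (rank 3601). The intronic sites ranked 4150, 4200 and 4453, with signals of 170, 168 and 159. The 4200 site was in intron 1 of 7, 1239 bp past the start site. The other 2 were in intron 2, at 9117 and 9686 bp, with summits 569 bp apart. All 3 intronic sites were stronger in replicate 3, with signals of 102 to 111 and ranks of 3768 to 4052, than in replicate 1, with signals of 54.8 to 59.3 and ranks of 5563 to 6186. None of the 3 was among the strongest 5354 of replicate 1, so with replicate 1 alone wts had 1 site in place of 4. In all, wts had 16 pooled peaks, and the 12 outside the IDR list had signals of 77.2 or lower.

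Mats, the coactivator of Warts, had a single site that the replicates ranked alike. The gene mats (FBgn0038965) covers 22421161 to 22423302 of 3R on the plus strand and shares its start region with Nop56, whose start site is 93 bp away on the other strand. The site, from 22421593 to 22421996, had its summit in intron 1 of 2, 470 bp past the nearer of 2 mats start sites, and ranked 5056 (signal 142). It had rank 5220 and a signal of 79.3 in replicate 3, and rank 5218 and a signal of 62.3 in replicate 1.

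Yorkie, the coactivator at the end of the kinase cascade, came after ft and ex in the order of best sites. The gene yki (FBgn0034970) lies on 2R from 24065975 to 24068485 on the minus strand. The site, from 24068673 to 24068952, lay at the divergent start sites of yki and Gpat4, an acyltransferase gene. Its summit was 309 bp upstream of the yki start site and 37 bp past that of Gpat4, so not between the start sites. The site ranked 1001 (signal 575), with a signal of 394 in replicate 3 (rank 911) and 180 in replicate 1 (rank 1277). The start sites of yki and Gpat4 are 272 bp apart, so 1 site serves both by the promoter limit and the data do not assign it to either. No other peak in reach of yki was reproducible, and the next pooled peak, at the start site of Rap2l, ranked 6902.

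Scalloped, the TEAD-family DNA-binding partner of Yorkie, had 2 sites around its last alternative start site and none at its first. The gene sd (FBgn0003345) lies on X from 15804370 to 15827682 on the plus strand and has 7 annotated protein-coding start sites. The stronger site, from 15817779 to 15818182, had its summit 170 bp before the start site at 15818151, which is 13611 bp past the first. It ranked 3982 (signal 177), with a signal of 120 in replicate 3 (rank 3525) and 58.0 in replicate 1 (rank 5748). The other, from 15818590 to 15818993, lay in the intron 641 bp past that start site and ranked 4047 (signal 175), with a signal of 105 in replicate 3 (rank 3949) and 74.7 in replicate 1 (rank 4074). Near the first start site, a pooled peak at the promoter of the neighbour PGRP-LE ended just below the IDR list (rank 5622, signal 128). It had rank 4556 in replicate 3 and 6179 in replicate 1.

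The following windows are shown because they hold CATTCT, which stood out when the member sequences were read, or because they lie beside such a window in the same gene.

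sd, last start site (chrX:15817931-15818031): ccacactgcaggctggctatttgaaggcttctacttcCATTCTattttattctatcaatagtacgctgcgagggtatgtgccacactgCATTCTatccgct
sd, intron (chrX:15818742-15818842): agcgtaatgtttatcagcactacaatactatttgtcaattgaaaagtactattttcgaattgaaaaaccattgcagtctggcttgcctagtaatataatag
wts, cindr promoter (chr3R:30808399-30808499): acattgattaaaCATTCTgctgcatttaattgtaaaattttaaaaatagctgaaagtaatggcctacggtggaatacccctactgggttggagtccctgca
wts, intron 1 (chr3R:30805330-30805430): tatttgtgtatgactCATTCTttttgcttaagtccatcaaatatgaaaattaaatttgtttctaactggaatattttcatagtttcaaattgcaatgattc
mats, intron 1 (chr3R:22421745-22421845): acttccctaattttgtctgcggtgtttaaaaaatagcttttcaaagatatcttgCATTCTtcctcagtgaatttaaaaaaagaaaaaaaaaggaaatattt

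The homeodomain core was found in few windows, both at the members and over the whole list. TAATTA, searched on both strands within 50 bp of the summit, was in 2 of 18 member windows (11.1%), those of ft and ex above, against 10.6% of all 5354 windows. Within 25 bp it was in the same count of 2 of 18, against 5.85% of all windows, and within 100 bp in 3 of 18, against 18.2%. In flanks of the same width as the first window, centred 350 bp to the left and right of the summit, it was in 4 of 18 (22.2%) and 1 of 18, against 5.34% and 5.83% of all sites. The comparison was not tested. The related core TAATTG was in 1 of 18, against 10.9%. CATTCC, the core of the motif that Scalloped and its TEAD relatives bind, was in 0 of 18 member windows, against 3.04% of all windows. With 100 bp to either side it was still in 0 of 18, against 7.0%. The DREF motif TATCGATA of housekeeping promoters was in 1 of 18, the p53 promoter site in reach of sav, against 1.16%.

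CATTCT, chosen after the sequences were read and so given with no test, was in 6 of 18 member windows (33.3%) at 5 genes, against 4.89% of all windows. The windows were those of hpo at its own promoter, wts (both printed ones), mats, sd and ex. Among 2080 words of 6 bases merged with their reverse complements, 9 were in 6 or more member windows, a cut equal to the count of CATTCT itself. Of these 9, CATTCT had the highest ratio to its share in all windows (6.81). In 4 or more member windows there were 50 words, and 2 had a ratio at least as high, CATTCT and GGCACA (8.45). CATTCT was picked from these same windows, so its place in this order is no support for it. In flanks of the same width centred 350 bp to either side, it was in 2 and 1 of the 18 member sites, against 4.37% and 4.61% of all sites. Because CATTCT was picked for its presence at the summits, lower counts in the flanks are no support for it either. A match is a description of the letters and shows no binding by any factor.

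Of the 18 member sites, 9 were at promoters, against 41.9% of all reproducible sites. In 6 of the 9, at hpo, mats, yki, sd, ft and ex, the member's own start site was within 500 bp, a rule that 21.4% of all protein-coding genes met. The yki site was also within 500 bp of Gpat4. The 3 other promoter sites were at Rep, cindr and p53 alone. Introns held 6 of 18, against 34% of all sites, in wts, sd and ex. Intergenic sequence held 3 of 18, against 19.8%, and these were the upstream sites of ft, ds and ex. Gene bodies held 8 of 18, at 4 members (wts, mats, sd and ex), against 11.8% of all genes with a site in the body. That share depends on gene length. The members wts, sd and ex are 16 kb or longer, a class in which 50.6% of all genes had none in the body. The long members ft and ds had none either. The nearest protein-coding start site was the member's own at 13 of 18 sites, and the same count was not made for the sites in reach of all genes. At any distance, 8 of 10 members had the nearest start site to some reproducible site, against 23.8% of all genes. Of the 9 gaps between neighbouring summits in a member gene, 5 were from 569 to 1008 bp. Such gaps were not counted over all genes, so no share can be set beside this count.

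Member sites lay more towards the weak end of the list, with a median rank of 3933.5, against 2677.5 over all sites. Of them, 8 were among the stronger 2677 sites and 10 among the weaker 2677. Their median signal was 179, against 259 over all sites. By rank, 8 of 18 were among the weakest 1338 of the 5354 sites and 3 among the strongest 1338. The strongest 2677 held 8 sites at 5 members (yki, ft, ds, ex and wts), against 33.5% of all genes with such a site. In the pooled list all 10 members had a peak in reach, against 83.8% of all genes, and the 73 member peaks outside the IDR list had a median signal of 47.1. A partner within 100 bp among the strongest 5354 peaks of both replicates was found for 11 of 18, against 72.7% of all sites and 25.2% of the weakest 1338. In the full lists, 17 of 18 had partners in both, against 94.3%. The site without one was that at Rep. All sites of ft, ds, mats, yki and ex were in the strongest 5354 of both replicates, with 1 of 4 at wts, 1 of 2 at sd, and neither site at hpo nor the one at sav. These were 7 of 10 members, against 41.7% of all genes. A peak among the strongest 5354 of replicate 3 alone was in reach of 8 of 10 members, against 51.7% of all genes, and one of replicate 1 alone in reach of 9 of 10, against 49.3%.

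**Figure D3:**
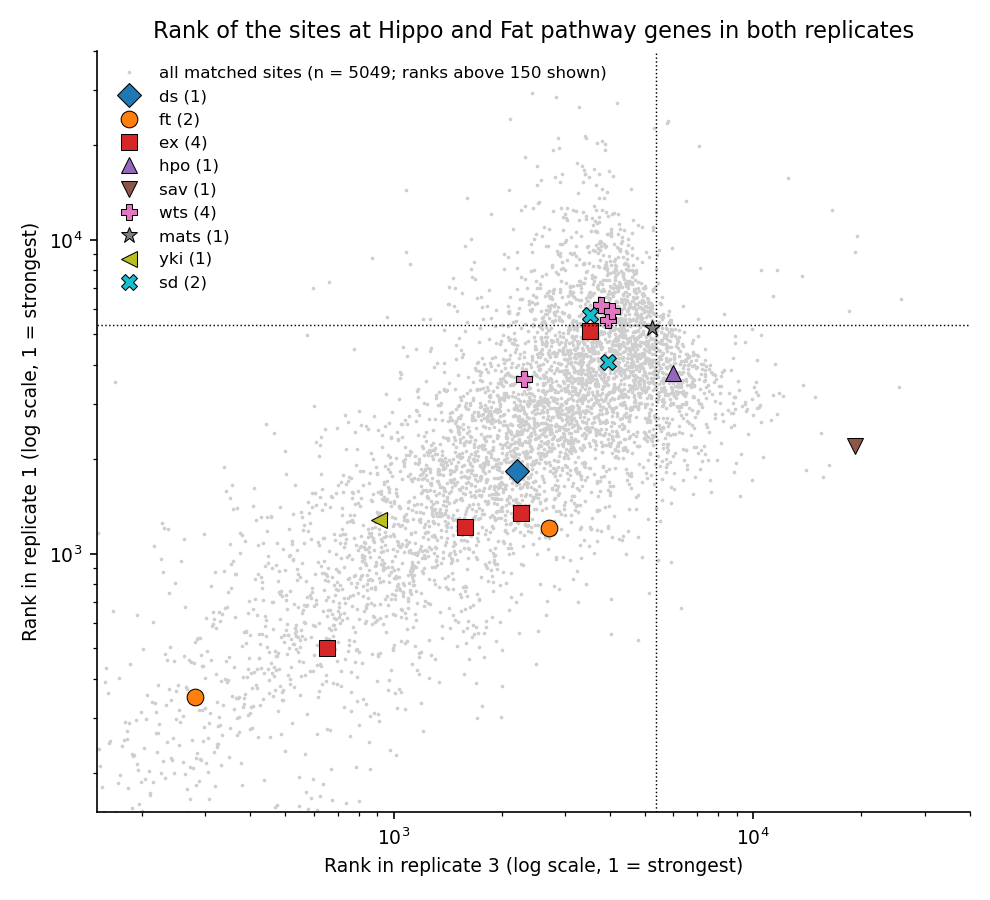
Rank in replicate 1 against rank in replicate 3 (both log axes, 1 is the strongest). Coloured points are the 17 member sites matched in both replicates, by gene, and grey points are the 5049 matched sites of the series. The strongest grey sites fall outside the axes. Dotted lines mark rank 5354. The strongest ft site (ranks 281 and 349) and the strongest ex site (653 and 502) have the lowest ranks of the set, and the sav site (19129 and 2209) lies far to the right of the others.

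Across the 17 matched member sites, signal in replicate 3 and in replicate 1 gave a Spearman coefficient of 0.713, and across all 5049 matched sites 0.721. The sites share 2 libraries and 1 control, and these are descriptions with no test. Signal was higher in replicate 3 at 14 of 17 member sites, against 83.1% of all matched sites. The median log2 ratio was 0.63 with quartiles of 0.35 and 1.0, against 0.69 with quartiles of 0.23 and 1.09 over all sites. Signal was lower in replicate 3 at the promoter sites of hpo and ft and at the p53 site. By position, the median log2 ratio was 0.23 at the 8 matched member promoter sites, against 0.92 at all matched promoter sites. It was 0.73 at the 6 intronic member sites, against 0.52, and 0.93 at the 3 intergenic ones, against 0.6. Of 2 words chosen from earlier results on the replicates, TTAAAA was in 3 of 18 member windows, against 32.6% of all windows, and CAAACA in 1 of 18, against 15%.

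Other genes of the pathway were read from 3 lists, with the same rule of 5 kb. Of 26 upstream regulators, which include polarity proteins and cofactors of the Fat branch, 22 had a reproducible site (84.6%), against 50.8% of all protein-coding genes. The median length of these regulators was 10093 bp, in the class of 4 to 16 kb where 61.5% of all genes had one. The strongest were at dco, the kinase gene also called discs overgrown (rank 233, signal 1341, a site 408 bp from the start site of Sox100B), kibra, an upstream activator of the kinases (rank 462), crb, the apical polarity gene crumbs (rank 629), and app, for a palmitoyltransferase of the Fat branch (rank 815). The genes jub (a LIM protein that restrains Warts), Fbxl7 (a ubiquitin ligase subunit of the Fat branch), l(2)gl (a polarity protein) and Mob4 had none. Of the 26, 14 had a site within 500 bp of an own start site, against 21.4% of all genes.

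Of 10 genes for partners of Yorkie or Scalloped, 8 had a site (80.0%), against 50.8% of all genes and 61.5% of those of 4 to 16 kb, the class that holds the list's median length of 14386.5 bp. E2f1, a cell cycle transcription factor gene, had the strongest, in an intron on 3R from 21641490 to 21641911 (rank 120, signal 1778). The homeobox gene hth, whose product can act with Yorkie, had 16 sites in or near its body of 132008 bp, the strongest of rank 231. Mad (rank 674) and vg (rank 1907), the wing selector whose product binds Scalloped, followed, and tsh and Wbp2 had none.

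Of 12 known Yorkie targets, 11 had a site (91.7%), against 50.8% of all genes, and the exception was Ser, for a Notch ligand. Besides E2f1, strong sites lay at CycE, the cyclin E gene, in an intron 531 bp from a start site (rank 156, signal 1613), dlp, a glypican gene (rank 307), and Diap1, the inhibitor of apoptosis (rank 451). The target list shares E2f1, kibra, crb and Mer with the other lists. Of the 12 targets, 9 are 16 kb or longer, a class in which 68.3% of all genes had a site. These lists and their counts were not tested against other genes.

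**Figure D4:**
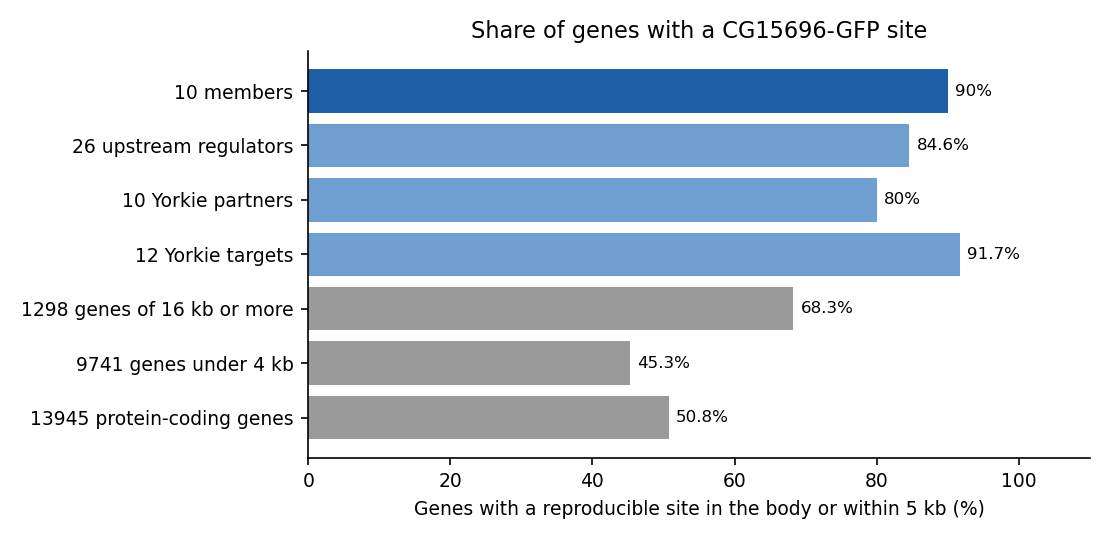
Percentage of genes with a reproducible site in the body or within 5 kb. Bars are the 10 members, 3 other lists of pathway genes, long genes (16 kb or more), short genes (under 4 kb) and all protein-coding genes. Genes of 4 to 16 kb, of which 61.5% had a site, are not drawn. The members (90%) and lists (80 to 91.7%) stand above long genes (68.3%), short genes (45.3%) and all genes (50.8%), with no test of the difference.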

How the data were processed

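Peak lists of CG15696-GFP ChIP-seq were analysed for replicates 3 and 1. Per the notes deposited with the files, the authors called peaks on dm6 for each replicate and for both together against 1 control alignment, and derived the IDR list from these 3 lists. The sources used here name neither the peak caller and its version nor the IDR threshold. The deposited signal per peak was used for ranks within a list. The deposited −log10 q value reaches a ceiling and was not used. Depth is unknown.

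Summits were placed on Ensembl release 115 genes and the RefSeq copy of the same assembly, and all peaks lay within the arms of that assembly. Promoter means a summit within 500 bp of a protein-coding start site. Replicate partners had summits within 100 bp. Motifs were searched within 50 bp of summits on both strands. The symbols d and Trr were matched as dachs and trr. The placing functions were tested on simulated sites. Python 3.11.15, numpy 2.4.6 and pandas 2.3.3 were used. Members, lists and motifs were chosen with earlier results of these data known, and no test was made over them. All members were described, with up to 4 genes per other list by strongest site, and CATTCT was added after sequences were read. Alternatives varied the reach, replicates, threshold, windows and matching.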

Additional observations from a re-analysis of the deposited data

How the results depend on the processing

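The reach given to a gene moved the counts most. With 10 kb in place of 5 kb, 28 sites fell at all 10 members, and 64.7% of all genes had one. With 2 kb there were 17 at 8, against 37.2%. In gene bodies alone there were 8 sites at 4 members (11.8% of all genes have one), and within 500 bp of own start sites 6 at 6 (21.4% of all genes). Of the members with a site in the body, wts, sd and ex are 16 kb or longer, where 50.6% of all genes had none. By nearest start site at any distance, 15 sites belonged to 8 members (23.8% of all genes). The stronger 2677 sites left 8 sites at 5 members (33.5% of all genes). A partner in the strongest 5354 of both replicates left 11 sites at 7 members (41.7% of all genes). Leaving out 1 replicate gave 8 members without replicate 1 (51.7% of all genes) or 9 without replicate 3 (49.3%), 16 to 18 sites and 8 to 10 promoter sites. Sharing between replicates covered 17 sites with the full lists, and 10 or 12 with partners within 50 or 200 bp. Median signal over that of all sites was 0.692, and 0.755 or 0.78 with 1 replicate left out. Scaling each replicate to its median brought the log2 ratio of 0.63 to 0.01. For the other lists, alternatives chosen after seeing the data gave 14 upstream regulators, 5 partners and 6 targets with a site at an own start site, and 14 upstream regulators with the stronger 2677 sites. In these cases the smaller reach or list sets the lower count.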

Other observations

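Sites just beyond the limit of 5 kb included the strongest in the surroundings of the pathway genes. A site 7841 bp past the end of wts, inside the neighbouring gene zfh1, which encodes a transcription factor of muscle and blood cells, ranked 108 (signal 1846), with rank 99 in replicate 3 and 177 in replicate 1. It is nearer to zfh1 than to wts, and its relation to either was not tested. Upstream of wts, 2 more sites lay in introns of cindr (ranks 1559 and 2986).

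Besides CATTCT, the word GGCACA was in 5 of 18 member windows (27.8%), against 3.29% of all windows, a ratio of 8.45. Both words were noticed in these windows, so neither count is a test.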
